A study of Mus musculus with 3 samples.

Results

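The genes described here are 43 that cells use to pass through the G2 phase and mitosis, picked by gene symbol from the 32285 genes of each library, and all 43 were found and had UMIs (unique molecular identifiers, each marking 1 captured RNA molecule). They were followed in single-cell RNA sequencing of mouse bone marrow depleted of mature (lineage-positive) cells, with 1 library for each of 3 genotypes. The Lztr1 knockout library came from Lztr1fl/fl;Mx1Cre+ mice, in which Cre deletes a gene whose product leads RIT1 and other RAS-like proteins to degradation. The Rit1-M90I library came from Rit1M90I/+;Mx1Cre+ mice, which carry a RIT1 variant known from Noonan syndrome. The Cre-negative control carried the same Rit1M90I/+ allele without Cre, and its title calls it wild type. All mice were 8 weeks old and had 3 doses of 12 mg/kg pIpC, an RNA duplex that evokes interferon and through it the Mx1 promoter that drives Cre, and marrow was taken 4 weeks later. That promoter acts in many tissues, and the control had no Cre, so an effect of Cre itself and an effect of the allele cannot be told apart. The sources used here do not give the number of mice in a library. With 1 library per genotype no difference could be tested, the intervals below cover counting error only, and the spread between mice is not known.

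The libraries held 2338 cells in the Lztr1 knockout, 9351 in Rit1-M90I and 7262 in the control after filtering, with a median UMI number per cell of 9922 in the knockout, 6584 in Rit1-M90I and 6856 in the control. Lztr1 was at 6.34 CPM (UMIs of the gene scaled to a common library total of 1000000, 95% Poisson interval 5.43 to 7.35) in the Lztr1 knockout library, against 15.2 CPM (14.4 to 16.1) in Rit1-M90I and 17.3 CPM (16.2 to 18.3) in the control. The library labelled Lztr1 knockout was thus low in Lztr1 but not at 0, and 3′ tags from cells without recombination and from a remaining transcript cannot be told apart. Between 5 and 19 cell barcodes were shared by any 2 libraries, and called doublets were 3.47% of cells in the Lztr1 knockout, 4.75% in Rit1-M90I and 3.47% in the control.

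A dividing cell builds the products of these genes in an ordered wave. Cyclins A and B with the kinase CDK1 drive entry into mitosis, polo-like and Aurora kinases build the spindle, and the checkpoint kinases hold the cell until every chromosome is attached. The anaphase-promoting complex with CDC20 and UBE2C then destroys cyclin B, and the cytokinesis proteins cut the cell apart. In bone marrow most stem cells rest outside the cycle, whereas the committed progenitors and early erythroblasts divide fast, so RNA of these genes marks how much of a population is in cycle. In pooled RNA, fewer dividing cells and less of this RNA per dividing cell cannot be told apart. Each UMI is a 3′ tag of 1 molecule, so CPM below compares 1 gene across populations and libraries.

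Many genes of this wave are held off outside G2 by the DREAM complex, which binds a cell cycle homology region (CHR) close to the transcription start, and are switched on through CCAAT boxes bound by NF-Y. Promoters from 250 bases before to 50 bases after the start were in the RefSeq table of build GRCm38.p6 for 36 of the 43 genes. TTTGAA or TTCGAA, the letters of the CHR, lay within 50 bases of the start on either strand in 25 of these 36 (69.4%), against 5.31% of all 32851 promoters of the same length. CCAAT on either strand was in 28 of the 36 (77.8%), against 37.4% of all promoters. Both were present in 22 of the 36 (61.1%), against 2.24% of all. Matches of the 2 motifs were counted independently and may overlap. In most of the 25 genes the CHR letters near the start lay after it, for instance by 30 bases in Plk1 and 40 in Bub1b. Anln, Ndc80 and Kif20b had such CHR letters without CCAAT. The 6 promoter cores below come from the smaller part of the 25, with CHR letters 15 to 30 bases before the start and CCAAT letters upstream of them. Each runs 5′ to 3′ on the gene's own strand over 120 bases and ends between 10 bases before and 5 bases after the start. Capitals mark CCAAT or its other strand ATTGG. They also mark TTTGAA or its other strand TTCAAA, as well as TTCGAA, which reads the same on both strands. They come from chr10:69352908-69353027 (minus strand) for Cdk1, chr11:99024193-99024312 (minus) for Top2a, chr4:118437342-118437461 (minus) for Cdc20, chr2:164769800-164769919 (plus) for Ube2c, chr19:37376263-37376382 (plus) for Kif11 and chr8:57511713-57511832 (plus) for Hmgb2.
Cdk1: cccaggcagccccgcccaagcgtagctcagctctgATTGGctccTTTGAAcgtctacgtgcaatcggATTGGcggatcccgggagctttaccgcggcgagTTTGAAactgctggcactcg
Top2a: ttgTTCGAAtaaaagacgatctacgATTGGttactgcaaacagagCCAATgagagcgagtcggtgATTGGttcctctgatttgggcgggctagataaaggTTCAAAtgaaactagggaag
Cdc20: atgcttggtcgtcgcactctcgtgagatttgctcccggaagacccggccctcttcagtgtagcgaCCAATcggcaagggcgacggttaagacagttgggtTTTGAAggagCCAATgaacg
Ube2c: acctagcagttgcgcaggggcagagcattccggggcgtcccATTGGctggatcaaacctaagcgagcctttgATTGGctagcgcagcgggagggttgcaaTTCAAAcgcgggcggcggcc
Kif11: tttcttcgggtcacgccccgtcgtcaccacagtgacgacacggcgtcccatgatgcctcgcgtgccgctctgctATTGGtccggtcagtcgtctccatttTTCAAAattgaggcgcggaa
Hmgb2: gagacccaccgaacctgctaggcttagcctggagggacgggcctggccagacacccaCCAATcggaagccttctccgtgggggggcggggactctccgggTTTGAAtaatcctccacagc
A match is a description of letters and says nothing of binding. Nuf2, Nusap1, Birc5 and Tacc3 had neither motif in their windows, and Mki67 had 3 CCAAT matches but its CHR letters lay farther than 50 bases from the start.

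Over all kept cells the mitotic genes stood slightly higher in the Lztr1 knockout library than in the control, nearly all of them and by a small amount each. The 43 genes together took 0.606% of UMIs in the Lztr1 knockout (0.603 to 0.609), 0.540% in Rit1-M90I (0.538 to 0.541) and 0.524% in the control (0.523 to 0.526). Their median level was 72.8 CPM in the knockout, 62.0 CPM in Rit1-M90I and 61.1 CPM in the control. On the scale log2(CPM + 10), which understates the change of low genes, the median difference of the Lztr1 knockout from the control was 0.18 (quartiles 0.12 and 0.24), and 42 of the 43 genes lay above 0. The median over all 5895 genes with a mean of at least 20 CPM was 0.02. For Rit1-M90I over the control the median was 0.03, with 28 of 43 above 0, beside −0.05 over all genes. For the Lztr1 knockout over Rit1-M90I it was 0.14, with 41 of 43 above 0, beside 0.06 over all genes. Of the 39 members that passed the minimum of 20 CPM, 0 were 1.5-fold apart on the CPM + 10 scale in either direction in any of the 3 comparisons. Every count of genes 1.5-fold apart below uses that scale, whereas fold values with an interval are ratios of plain CPM. Of all genes tested, 0.221% were that much higher and 0.322% lower in the Lztr1 knockout than in the control, 0.288% and 0.221% in Rit1-M90I than in the control, and 0.543% and 0.577% in the Lztr1 knockout than in Rit1-M90I. The populations described below and the cells assigned to no population, together 94.2% of control UMIs, were then weighted by their UMI shares in the control library. The median differences became 0.11 for the Lztr1 knockout over the control, 0.06 for Rit1-M90I over the control and 0.05 for the Lztr1 knockout over Rit1-M90I. Under this weighting the knockout median over the control was smaller than in the pooled cells and the Rit1-M90I median larger.

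**Figure D1:**
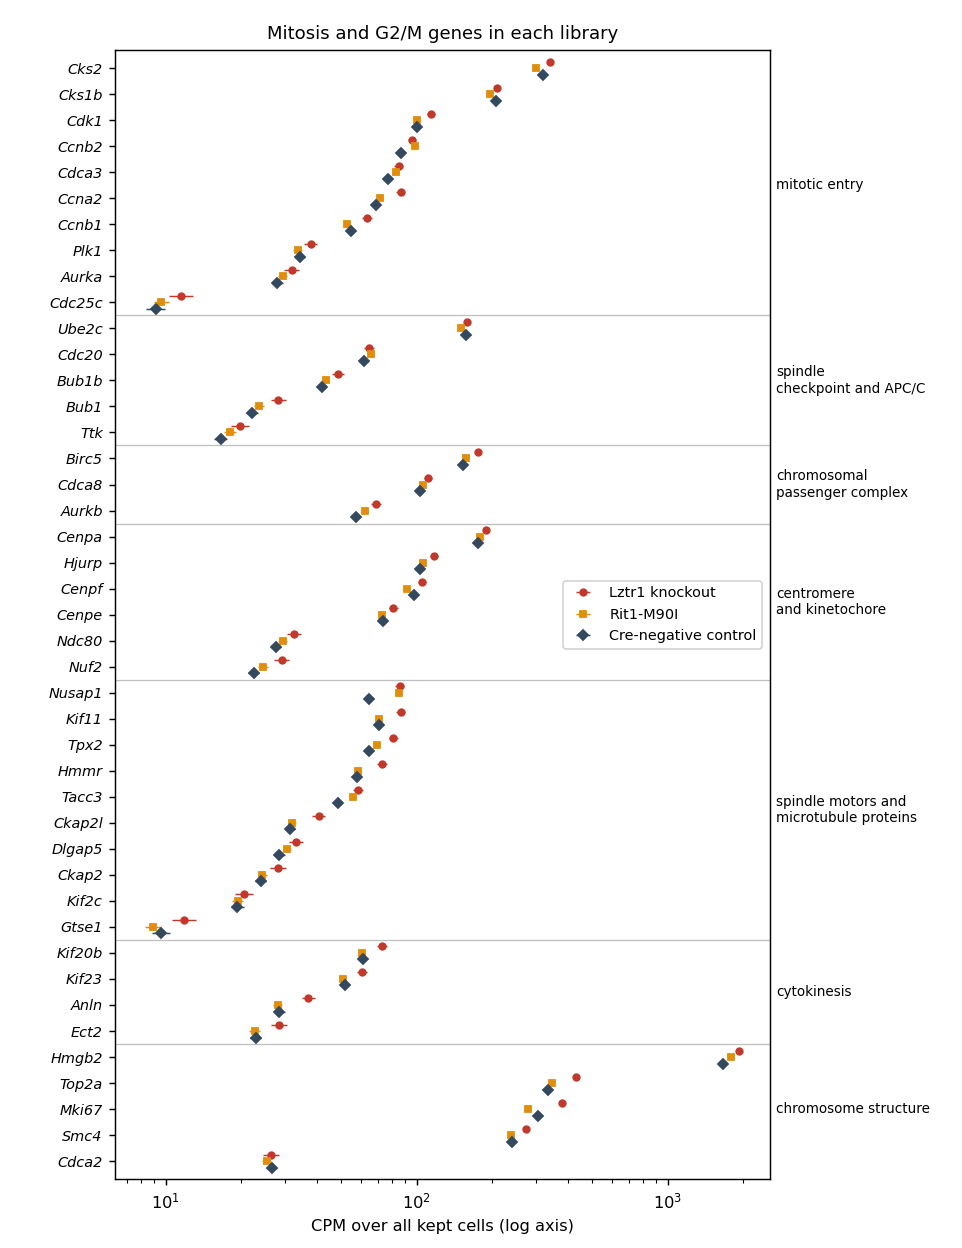
CPM of each of the 43 genes over all kept cells on a log axis, grouped by role, with 1 point per library and 95% Poisson bars. The knockout points lie slightly to the high side in nearly every row, and Hmgb2 is far above the rest at 1663 to 1925 CPM.

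Among the genes of mitotic entry, all 10 were higher in the Lztr1 knockout than in the control, by a median of 0.13. Ccna2, which encodes the cyclin A of S and G2 phase, had the largest log2 difference of the group at 86.3 CPM in the Lztr1 knockout, 71.5 CPM in Rit1-M90I and 68.9 CPM in the control (knockout over control 1.25-fold, 1.19 to 1.32). Cks2, a small subunit that binds CDK1 and the member of the group with the most UMIs, was at 340 CPM in the knockout, 298 CPM in Rit1-M90I and 318 CPM in the control, so Rit1-M90I was lowest. Its paralogue Cks1b, which also serves the G1 to S step, was at 209.7 CPM in the knockout, 196 CPM in Rit1-M90I and 206 CPM in the control, and the knockout and control intervals overlapped. Ccnb2, a B-type cyclin, was the member of the group furthest above the control in Rit1-M90I, with 95.8 CPM in the Lztr1 knockout, 98.3 CPM in Rit1-M90I and 87.0 CPM in the control.

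Among the spindle checkpoint and anaphase genes, Bub1, a checkpoint kinase, was at 28.1 CPM in the Lztr1 knockout, 23.5 CPM in Rit1-M90I and 22.1 CPM in the control (knockout over control 1.27-fold, 1.17 to 1.39). Ube2c, the ubiquitin-conjugating enzyme of the anaphase-promoting complex, was level by contrast, at 159 CPM in the knockout, 149.9 CPM in Rit1-M90I and 157 CPM in the control. Ttk, the kinase that starts the checkpoint, was at 19.8 CPM in the knockout, 18.1 CPM in Rit1-M90I and 16.5 CPM in the control and did not pass the minimum level. In the chromosomal passenger complex, which corrects faulty spindle attachments, Birc5 (survivin) had the most UMIs, at 176 CPM in the Lztr1 knockout, 158 CPM in Rit1-M90I and 152 CPM in the control. Its kinase Aurkb had the largest difference of the 3 subunits, at 68.9 CPM in the knockout, 62.0 CPM in Rit1-M90I and 57.3 CPM in the control, and Cdca8 the smallest, at 111 CPM in the knockout, 106 CPM in Rit1-M90I and 103 CPM in the control.

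At the centromere and kinetochore the pattern was the same in kind. Cenpa, the histone that marks centromeres, was at 189 CPM in the Lztr1 knockout, 179 CPM in Rit1-M90I and 176 CPM in the control. Nuf2, part of the complex that grips microtubules, had the largest difference of this group, at 28.9 CPM in the knockout, 24.4 CPM in Rit1-M90I and 22.4 CPM in the control, or 1.29-fold for knockout over control (1.18 to 1.41). Cenpf, a large kinetochore protein, was lowest in Rit1-M90I, at 105 CPM in the knockout, 91.6 CPM in Rit1-M90I and 97.6 CPM in the control. All 6 genes of this group lay above the control in the knockout library and 4 in Rit1-M90I.

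The spindle motors and microtubule proteins had the largest median of the roles, 0.24 for the Lztr1 knockout over the control with 10 of 10 genes above 0. Nusap1, which bundles spindle microtubules near chromosomes, stood apart because both mutant libraries were high. It reached 85.5 CPM in the knockout library and 84.7 CPM in that of Rit1-M90I, against 64.9 CPM in the control, or 1.32-fold (1.25 to 1.39) and 1.31-fold (1.26 to 1.36). Tacc3, a spindle protein that works with clathrin, was likewise high in both at 58.4 CPM in the knockout and 55.9 CPM in Rit1-M90I, against 48.5 CPM in the control. Kif11, the motor that pushes the spindle poles apart, was at 86.5 CPM in the knockout, 70.8 CPM in Rit1-M90I and 70.7 CPM in the control, so Rit1-M90I and the control were level. Kif2c, a kinesin that takes microtubules apart, had overlapping intervals at 20.5 CPM in the knockout, 19.4 CPM in Rit1-M90I and 19.3 CPM in the control. Gtse1, a microtubule-bound protein of G2, did not pass the minimum level, at 11.9 CPM in the knockout, 8.92 CPM in Rit1-M90I and 9.61 CPM in the control.

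Of the 4 cytokinesis genes, 4 were above the control in the pooled knockout library and 0 in that of Rit1-M90I, where the 4 differences from the control were within counting error. These counts differed inside the populations described below. In neutrophil progenitors 4 were above the control in both mutant libraries. In basophils and mast cells 2 were above it in the knockout and 3 in Rit1-M90I, and in lymphoid progenitors 2 and 0. Over all kept cells Anln, the scaffold of the contractile ring, was at 37.0 CPM in the Lztr1 knockout, 27.9 CPM in Rit1-M90I and 28.4 CPM in the control (knockout over control 1.30-fold, 1.21 to 1.41). Kif20b, a kinesin of late cytokinesis and the one of the 4 with the most UMIs, was at 72.8 CPM in the knockout, 60.4 CPM in Rit1-M90I and 61.1 CPM in the control. Among the chromosome structure genes, Top2a, the topoisomerase that untangles sister chromatids, had the largest log2 difference between the knockout and the control of the whole list, 0.36. It reached 432 CPM in the Lztr1 knockout, against 346 CPM in Rit1-M90I and 334 CPM in the control (knockout over control 1.29-fold, 1.26 to 1.32). Mki67, which encodes the Ki-67 protein that coats mitotic chromosomes, was at 378 CPM in the Lztr1 knockout, 278 CPM in Rit1-M90I and 303 CPM in the control. Rit1-M90I was thus below the control for Mki67 (0.917-fold, 0.899 to 0.935), the lowest value of any member in that comparison. Hmgb2, a DNA-bending protein also made outside mitosis, was at 1924.5 CPM in the knockout, 1793 CPM in Rit1-M90I and 1663 CPM in the control. Cdca2, which recruits a phosphatase to chromosomes at mitotic exit, was the 1 member not above the control in the Lztr1 knockout, at 26.3 CPM in the knockout, 25.2 CPM in Rit1-M90I and 26.4 CPM in the control.

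Cells were then assigned to populations by marker genes that are not members of the list, and 8 populations had at least 50 cells in each library. The check markers that were not used for the gate were at least 2-fold higher inside each gate than outside it, although Fcnb, 1 of the 5 for neutrophil progenitors, was low at 8.55 CPM inside the gate and 0.513 CPM outside it. Gates cut a continuous range, and some cells, gated or not, had their best score within 0.05 of the gate score threshold on either side. These were 195 for stem and multipotent cells, 329 for lymphoid progenitors and 198 for neutrophil progenitors. The gates themselves held 482 stem and multipotent cells, 1337 lymphoid progenitors and 4644 neutrophil progenitors. The list separated these populations by more than it separated genotypes. Erythroblasts, identified by globin genes, were highest, with a list median of 167 CPM in the Lztr1 knockout, 162 CPM in Rit1-M90I and 170.3 CPM in the control. Monocyte lineage cells followed at 101 CPM in the knockout, 90.7 CPM in Rit1-M90I and 84.1 CPM in the control, and erythroid progenitors at 78.9 CPM in the knockout, 85.6 CPM in Rit1-M90I and 83.4 CPM in the control. These last were level with the monocyte lineage in the control and below it in the Lztr1 knockout. Lymphoid progenitors had 60.8 CPM in the knockout, 47.6 CPM in Rit1-M90I and 62.8 CPM in the control, basophils and mast cells 60.8 CPM in the knockout, 54.4 CPM in Rit1-M90I and 45.7 CPM in the control, and neutrophil progenitors 56.3 CPM in the knockout, 52.0 CPM in Rit1-M90I and 43.1 CPM in the control. The order of these 3 differed between libraries. Stem and multipotent cells were lower at 32.5 CPM in the knockout, 21.5 CPM in Rit1-M90I and 28.0 CPM in the control, and T cells lowest at 5.18 CPM in the knockout, 11.4 CPM in Rit1-M90I and 12.4 CPM in the control, with 16 of the 43 genes at 0 among 55 knockout T cells.

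**Figure D2:**
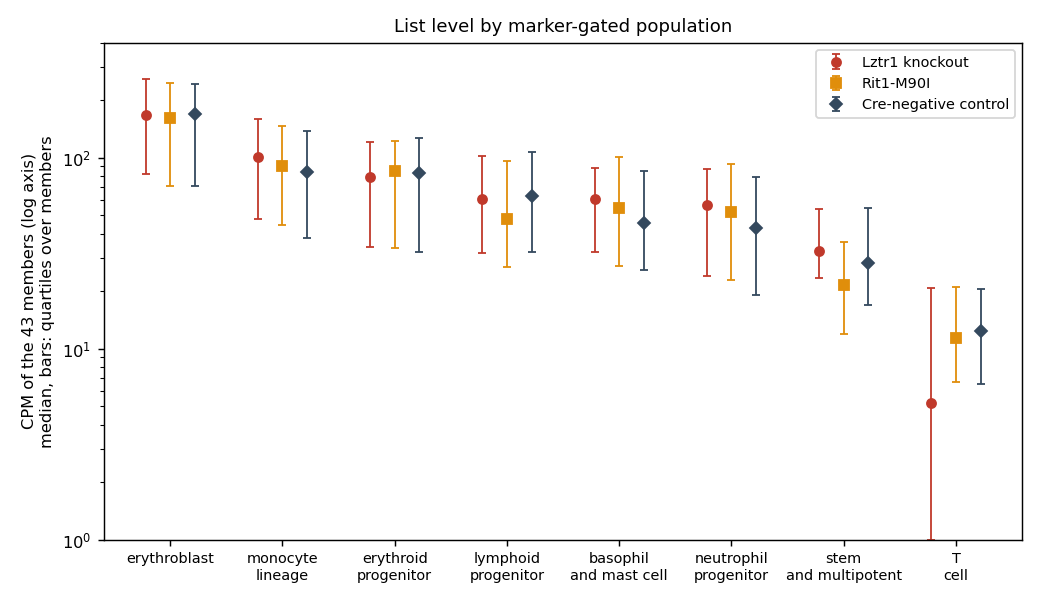
Median CPM of the 43 genes in each population and library on a log axis, with bars from the lower to the upper quartile over genes. Erythroblasts lie highest and T cells lowest in all 3 libraries, and the lower quartile of knockout T cells is 0, so its bar is drawn to the edge of the axis.

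Most genes followed this order closely. Over the 24 pairs of 8 populations and 3 libraries, the correlation of a gene with the median of the other 42 ran up to 0.99 for Birc5 and Cdk1. Its lowest values were 0.74 for Kif23, 0.85 for Hjurp and 0.86 for Smc4 and Cdca2. These are descriptions without a test, since the points share libraries, depths and the same total. Genes outside the list with the closest pattern were Kif22, Cit, Spag5, Incenp, Ube2s, Ska1, Ccnf, Hist1h1b, Shcbp1 and Smc2, at 0.97 to 0.98 over the same 24 points.

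Some members departed from the list in the same direction in all 3 libraries, which here means that their level in a population, relative to their own mean over populations, was above or below that of the other members. They were picked out after their values were seen. Kif23, a kinesin of the central spindle needed for cytokinesis, departed downwards in erythroid progenitors, at 23.3 CPM in the Lztr1 knockout, 26.0 CPM in Rit1-M90I and 24.6 CPM in the control. In the monocyte lineage the same gene was at 178 CPM in the knockout, 133 CPM in Rit1-M90I and 136 CPM in the control. Erythroid progenitors and the monocyte lineage had similar list medians in the control, so Kif23 separated them where the list did not. Mki67 was high in erythroblasts, at 1308 CPM in the knockout, 1240 CPM in Rit1-M90I and 1197 CPM in the control, and low in neutrophil progenitors, at 207 CPM in the knockout, 163 CPM in Rit1-M90I and 145 CPM in the control. The ratio of Mki67 to Top2a in neutrophil progenitors was 0.61 in the knockout, 0.60 in Rit1-M90I and 0.61 in the control, and in erythroblasts it was 1.58 in the knockout, 1.52 in Rit1-M90I and 1.28 in the control. Cenpa was high in erythroid progenitors, at 294 CPM in the Lztr1 knockout, 325 CPM in Rit1-M90I and 311 CPM in the control. Hjurp, the chaperone that loads CENPA, departed upwards in stem and multipotent cells instead. On the log2 scale its departure was 0.55 in the knockout, 0.87 in Rit1-M90I and 0.68 in the control. There it was at 102 CPM in the knockout, 98.5 CPM in Rit1-M90I and 96.5 CPM in the control. Over all kept cells it was higher, at 117 CPM in the knockout, 106 CPM in Rit1-M90I and 103 CPM in the control, but the list fell further. Hmgb2 in basophils and mast cells was at 2621 CPM in the knockout, 2312 CPM in Rit1-M90I and 2064 CPM in the control, an upward departure of at least 0.52 on the log2 scale in each library.

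**Figure D3:**
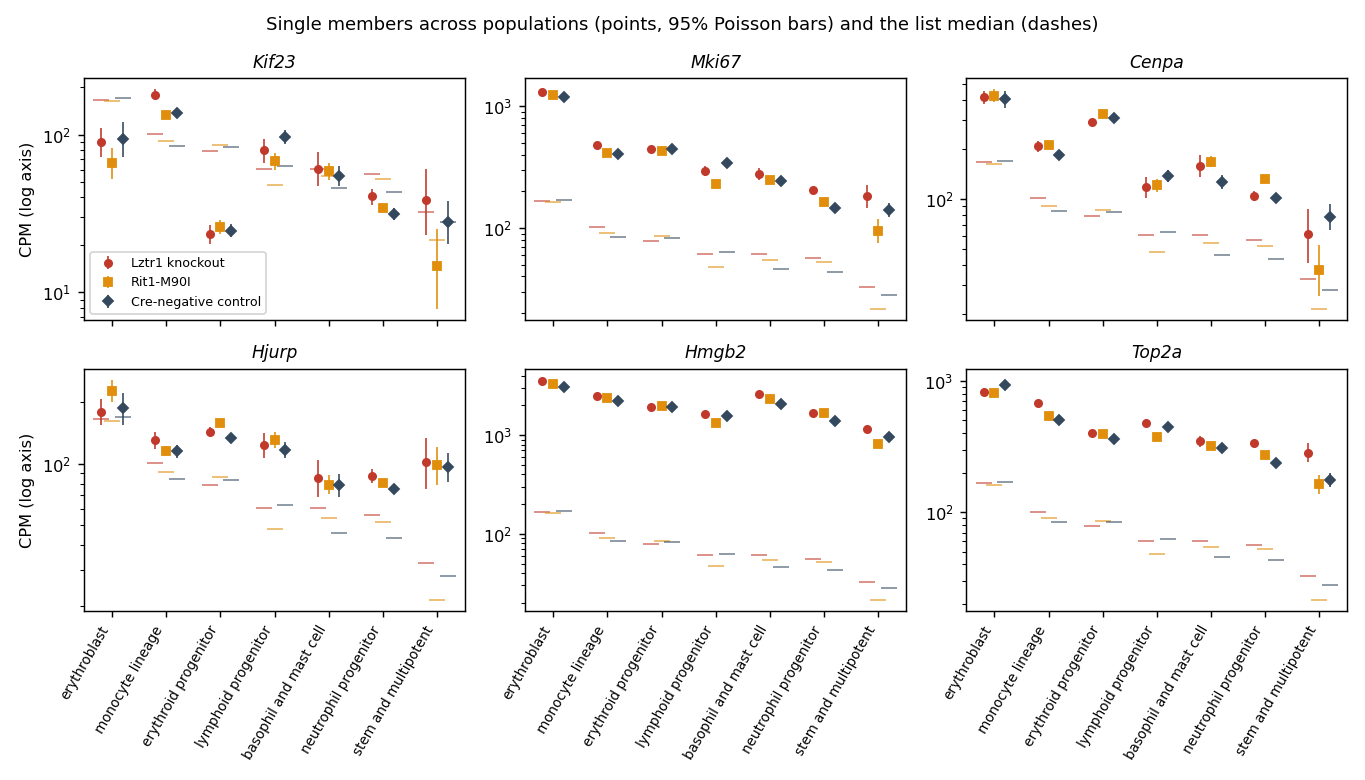
CPM of Kif23, Mki67, Cenpa, Hjurp, Hmgb2 and Top2a in 7 populations, 1 point per library with 95% Poisson bars, and dashes for the list median. Kif23 lies below its list median in erythroid progenitors and above it in the monocyte lineage, while Mki67 is highest in erythroblasts.

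In neutrophil progenitors, the granule-making precursors of neutrophils, both mutant libraries lay above the control. The median log2 difference was 0.21 for the Lztr1 knockout over the control, with 41 of 43 genes above 0, and 0.17 for Rit1-M90I over the control, with 43 of 43 above 0. Over all 5363 genes tested in this gate the medians were 0.05 and −0.02, so the order of the 2 mutants depends on this reference. Between the Lztr1 knockout and Rit1-M90I the list median was 0.04, below the 0.07 over all genes tested. This list median became −0.020 with size factors from the median of ratios. No member of the 38 that passed was 1.5-fold apart in any of these comparisons, where 0.149% of all genes were that much higher and 0.224% lower in the Lztr1 knockout than in the control, 0.168% and 0.280% in Rit1-M90I than in the control, and 0.242% and 0.131% in the Lztr1 knockout than in Rit1-M90I. Top2a was at 337 CPM in the Lztr1 knockout, 272 CPM in Rit1-M90I and 236 CPM in the control. Ckap2l, a spindle protein, was at 32.6 CPM in the knockout, 24.2 CPM in Rit1-M90I and 19.3 CPM in the control (knockout over control 1.69-fold, 1.42 to 2.01), with Rit1-M90I between the others. Ccna2 was equal in the mutants at 57.6 CPM in the knockout and 57.6 CPM in Rit1-M90I, against 41.3 CPM in the control, and Nusap1 similarly at 56.5 CPM in the knockout and 59.3 CPM in Rit1-M90I, against 43.1 CPM in the control. Ube2c broke the pattern at 86.0 CPM in the Lztr1 knockout, 102 CPM in Rit1-M90I and 90.9 CPM in the control, and Cenpa was higher in Rit1-M90I than in the knockout, at 104 CPM in the knockout, 132 CPM in Rit1-M90I and 101 CPM in the control.

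The balance of late to early members also differed between the mutants in neutrophil progenitors. Ccnb1, Plk1, Cdc20, Aurka, Cenpa, Cenpe, Dlgap5 and Hmmr peak in mitosis, and Cdk1, Ccna2, Top2a and Kif11 earlier. Their summed CPM had a late to early ratio of 0.64 (0.61 to 0.67) in the Lztr1 knockout, 0.84 (0.82 to 0.86) in Rit1-M90I and 0.81 (0.78 to 0.84) in the control. Top2a alone gave 337 of the 558 CPM of the early sum in the knockout, 272 of 478 in Rit1-M90I and 236 of 408 in the control. In lymphoid progenitors the ratio was 0.57 (0.52 to 0.63) in the knockout, 0.72 (0.68 to 0.77) in Rit1-M90I and 0.70 (0.66 to 0.74) in the control, so the knockout was again lowest. The monocyte lineage had 0.71 (0.67 to 0.75) in the knockout, 0.81 (0.78 to 0.84) in Rit1-M90I and 0.75 (0.72 to 0.78) in the control. There the knockout and control intervals overlapped. This order did not hold in every population. In erythroblasts the ratio was 0.90 in the knockout, 0.93 in Rit1-M90I and 0.82 in the control, and in basophils and mast cells 0.84 in the knockout, 0.90 in Rit1-M90I and 0.73 in the control, so the control was lowest in both. Stem and multipotent cells had 0.60 in the knockout and 0.58 in Rit1-M90I, against 0.88 in the control. Erythroid progenitors had the highest ratios, at 1.04 in the knockout, 1.12 in Rit1-M90I and 1.18 in the control. Over all cells the ratio was 0.80 in the knockout, 0.89 in Rit1-M90I and 0.90 in the control.

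The share of cells that hold these RNAs was counted next. After each cell was thinned to 3000 UMIs, a cell was called list-positive with at least 3 UMIs of the 40 members other than Hmgb2, Smc4 and Cks1b, which resting cells also make. Among neutrophil progenitors 78.7% were list-positive in the Lztr1 knockout (Clopper-Pearson 95% interval 74.5 to 82.4), 79.7% in Rit1-M90I (77.9 to 81.4) and 65.9% in the control (63.4 to 68.4). Without thinning the shares were 98.4% in the knockout, 95.9% in Rit1-M90I and 95.1% in the control, at median UMI numbers of 16180 in the knockout, 12236 in Rit1-M90I and 11810 in the control. List-positive neutrophil progenitors held on average 9.21 list UMIs in the Lztr1 knockout, 8.36 in Rit1-M90I and 8.48 in the control. Their medians were 8 in the knockout, 7 in Rit1-M90I and 6 in the control. A cell with more list RNA also passes the threshold of 3 UMIs more readily, so share and content cannot be told apart here. Cells at 0 list UMIs were 3.48% in the knockout, 3.02% in Rit1-M90I and 7.68% in the control. T cells and plasma cells, mostly not dividing, give the level that free RNA and rare cycling cells reach, at 8.11% in the knockout, 15.8% in Rit1-M90I and 12.1% in the control for T cells and 2.70% in the knockout, 7.14% in Rit1-M90I and 6.84% in the control for plasma cells. Over all gated cells of all libraries the median depths were 2798 UMIs for T cells and 10979 for plasma cells. The thinned shares rest on the 384 T cells and 336 plasma cells of at least 3000 UMIs. They leave out 589 T cells and 11 plasma cells. In the control 157 T cells were counted and 428 left out. Cells under 3000 UMIs could not be thinned, and these were 694 of 2810 neutrophil progenitors in Rit1-M90I, against 3 in the Lztr1 knockout and 6 in the control. With these cells left out of the CPM as well, the list medians were 56.3 CPM in the Lztr1 knockout, 51.7 CPM in Rit1-M90I and 43.1 CPM in the control, nearly as before. Markers of later neutrophils in this gate summed to 185 CPM in the knockout, 407 CPM in Rit1-M90I and 199.6 CPM in the control, with Ltf at 0 in 2 of the libraries (0.066 CPM in Rit1-M90I), and those of stem cells to 487 CPM in the knockout, 332 CPM in Rit1-M90I and 518 CPM in the control. Their part in the result was not tested.

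**Figure D4:**
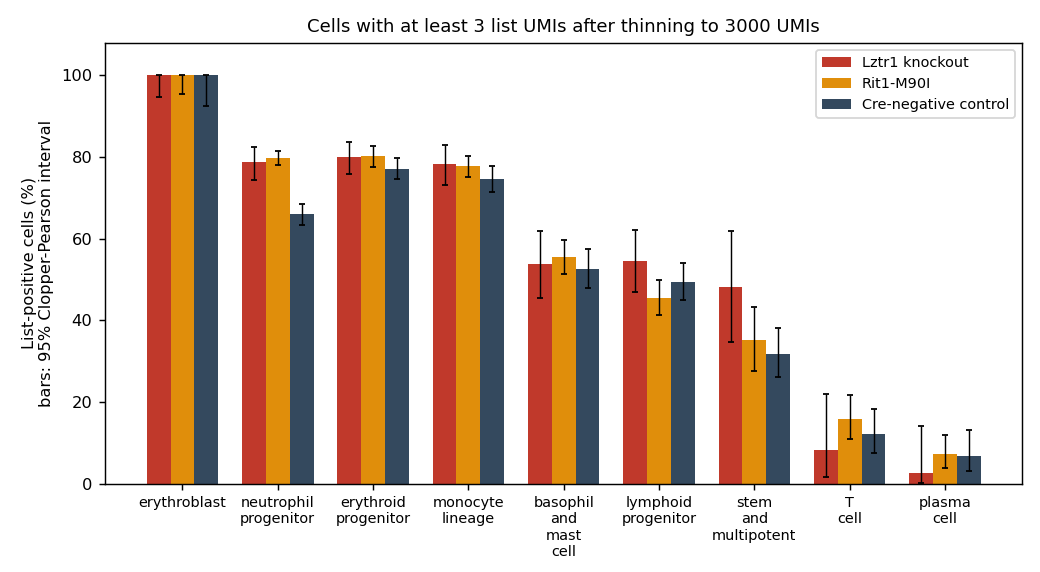
Percent of list-positive cells at 3000 UMIs per cell in 9 populations and 3 libraries, with Clopper-Pearson 95% bars on an axis from 0. In neutrophil progenitors both mutant bars reach about the same height, 78.7% and 79.7%, above 65.9% in the control, while T and plasma cells stay low.

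In monocyte lineage cells the Lztr1 knockout was above the control by a median of 0.23, with 41 of 43 genes above 0, and Rit1-M90I by 0.10, with 35 of 43. Over all genes tested in this gate the medians were 0.02 and −0.04. Here too 0 of 41 passing members were 1.5-fold apart on the CPM + 10 scale, beside 0.225% of all genes higher and 0.156% lower in the Lztr1 knockout than in the control, 0.311% and 0.173% in Rit1-M90I than in the control, and 0.156% and 0.415% in the Lztr1 knockout than in Rit1-M90I. Hmmr, a receptor for hyaluronan that also organises spindle poles, was at 101 CPM in the Lztr1 knockout, 75.1 CPM in Rit1-M90I and 67.0 CPM in the control. Anln was at 47.8 CPM in the knockout, 37.4 CPM in Rit1-M90I and 29.5 CPM in the control (knockout over control 1.62-fold, 1.31 to 2.0). Nusap1 was at 153 CPM in the knockout and 142 CPM in Rit1-M90I, against 107 CPM in the control, and Cks1b was equal in the knockout and the control at 273 CPM in the knockout, 247 CPM in Rit1-M90I and 273 CPM in the control. List-positive shares differed little, at 78.4% in the knockout, 77.7% in Rit1-M90I and 74.7% in the control. In this gate 10 of 10 neutrophil progenitor markers were higher in Rit1-M90I than in the control and 3 of 10 were higher in the knockout than in the control, with sums of 4112.5 CPM in the knockout, 5095 CPM in Rit1-M90I and 4065 CPM in the control. Basophil markers summed to 33.6 CPM in the knockout, 193 CPM in Rit1-M90I and 62.8 CPM in the control. The part of these markers in the result was not tested.

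In lymphoid progenitors the list median was lower in both mutant libraries than in the control. The list took 0.513% of UMIs (0.502 to 0.524) in the knockout and 0.441% (0.435 to 0.448) in Rit1-M90I. In the control it took 0.528% (0.521 to 0.535), so the knockout and control intervals overlapped. The median log2 difference was −0.11 for the Lztr1 knockout over the control and −0.20 for Rit1-M90I over the control. Of the 43 genes, 30 lay below 0 in the first comparison and 40 in the second. Over all genes tested in this gate the medians were 0.01 and −0.03. Of the 39 passing members 0 were 1.5-fold apart, beside 0.346% of all genes higher and 0.214% lower in the Lztr1 knockout than in the control, 0.478% and 0.132% in Rit1-M90I than in the control, and 0.627% and 0.643% in the Lztr1 knockout than in Rit1-M90I. Mki67 was at 294 CPM in the Lztr1 knockout, 231 CPM in Rit1-M90I and 340 CPM in the control, which for Rit1-M90I is 0.680-fold (0.625 to 0.740). Cdc20, the activator of the anaphase-promoting complex, was at 43.9 CPM in the knockout and 45.9 CPM in Rit1-M90I, against 62.8 CPM in the control, and Ube2c at 117 CPM in the knockout and 130.3 CPM in Rit1-M90I, against 156 CPM in the control. Tacc3 was an exception at 59.0 CPM in the Lztr1 knockout, 41.1 CPM in Rit1-M90I and 43.1 CPM in the control. Top2a was also highest in the knockout, at 481 CPM in the knockout, 372 CPM in Rit1-M90I and 447 CPM in the control. The share of list-positive cells did not follow the CPM in the Lztr1 knockout, at 54.5% (46.9 to 62.1), against 45.5% (41.2 to 49.95) in Rit1-M90I and 49.5% (45.0 to 54.0) in the control, and these intervals overlap. List UMIs per positive cell were 12.99 in the knockout, 13.4 in Rit1-M90I and 15.1 in the control. Neutrophil progenitor markers in this gate summed to 614 CPM in the knockout, 785 CPM in Rit1-M90I and 424 CPM in the control and basophil markers to 80.6 CPM in the knockout, 168 CPM in Rit1-M90I and 78.8 CPM in the control, and their part in the result was not tested.

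Erythroid cells were nearly level across genotypes. In erythroid progenitors the median log2 difference was −0.02 for the Lztr1 knockout over the control and 0.04 for Rit1-M90I over the control, and 0 of 41 passing members were 1.5-fold apart, beside 0.127% of all genes higher and 0.127% lower in the first comparison, 0.237% and 0.0728% in the second, and 0.109% and 0.182% for the Lztr1 knockout over Rit1-M90I. The second median became −0.0049 when populations were taken from clusters. Nusap1 was an exception in this population, at 69.8 CPM in the Lztr1 knockout, 93.7 CPM in Rit1-M90I and 60.9 CPM in the control (Rit1-M90I over control 1.54-fold, 1.42 to 1.67). Plk1, the polo-like kinase of mitotic entry, was lower in both mutants at 45.4 CPM in the knockout and 48.7 CPM in Rit1-M90I, against 57.2 CPM in the control. List-positive cells made up 79.9% in the knockout, 80.2% in Rit1-M90I and 77.2% in the control. Among erythroblasts every cell was list-positive, of 68 in the knockout, 81 in Rit1-M90I and 48 in the control, and the median log2 differences were 0.02 for the Lztr1 knockout over the control and −0.06 for Rit1-M90I over the control. With 51 to 82 erythroblasts per library, 2 of 43 members were 1.5-fold higher and 1 lower in the Lztr1 knockout than in the control, beside 2.48% and 2.91% of all genes. The 2 higher were Bub1b, a checkpoint protein, at 91.1 CPM in the Lztr1 knockout, 69.4 CPM in Rit1-M90I and 56.3 CPM in the control, and Anln at 81.4 CPM in the knockout, 72.9 CPM in Rit1-M90I and 50.2 CPM in the control. The lower one was Cdca2, at 28.1 CPM in the knockout, 40.8 CPM in Rit1-M90I and 47.1 CPM in the control. In Rit1-M90I 1 member was that much higher than in the control and 0 lower, beside 1.68% and 3.10% of all genes, and for the Lztr1 knockout over Rit1-M90I 0 were higher or lower, beside 1.98% and 0.905%. The 1 higher member was Ttk at 31.0 CPM in the Lztr1 knockout, 41.6 CPM in Rit1-M90I and 21.3 CPM in the control.

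Stem and multipotent cells showed wide differences on few cells, 57 in the Lztr1 knockout, 166 in Rit1-M90I and 259 in the control. The median log2 difference was 0.23 for the Lztr1 knockout over the control, −0.25 for Rit1-M90I over the control and 0.46 for the Lztr1 knockout over Rit1-M90I. The first became −0.0043 over every deposited barcode. In the last comparison 11 of 31 passing members were 1.5-fold higher and 0 lower, beside 5.69% and 6.55% of all genes. For the Lztr1 knockout over the control 2 were higher and 1 lower, beside 4.47% and 4.61% of all genes, and for Rit1-M90I over the control 1 was higher and 5 lower, beside 1.22% and 1.30%. Top2a was at 285 CPM in the Lztr1 knockout, 163 CPM in Rit1-M90I and 177 CPM in the control, so that the knockout stood apart. Cenpe, a kinetochore motor, was at 52.8 CPM in the knockout, 21.5 CPM in Rit1-M90I and 45.6 CPM in the control, so that Rit1-M90I stood apart instead. Cdc20 was at 24.4 CPM in the knockout and 29.4 CPM in Rit1-M90I, against 47.6 CPM in the control, and Ndc80, a kinetochore protein, was at 26.4 CPM in the knockout and 23.8 CPM in Rit1-M90I, against 11.1 CPM in the control. The summed level of the gate's own markers was 2992 CPM in the Lztr1 knockout, 3309 CPM in Rit1-M90I and 3279 CPM in the control, and neutrophil progenitor markers summed to 1181 CPM in the knockout, 1094 CPM in Rit1-M90I and 1146 CPM in the control. List-positive cells were 48.2% (34.7 to 62.0) of the Lztr1 knockout cells, 35.1% (27.6 to 43.2) of Rit1-M90I and 31.8% (26.1 to 38.1) of the control, with overlapping intervals.

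Basophils and mast cells differed from the control by a median of 0.12 for the knockout and 0.07 for Rit1-M90I. Of the 43 genes, 8 lay below 0 for the knockout, the lowest at −0.18, and 11 for Rit1-M90I, the lowest at −0.22. The knockout median became −0.028 among cells of at least 3000 UMIs, which leaves out 109 of 256 cells of this gate in the knockout, 708 of 1280 in Rit1-M90I and 532 of 961 in the control. Of 37 passing members, 2 were 1.5-fold higher and 0 lower in the Lztr1 knockout than in the control, beside 0.540% and 0.675% of all genes, namely Ect2 and Hmmr. For Rit1-M90I over the control 0 were higher or lower, beside 0.321% and 0.152%. Ect2, which switches on RhoA at the cleavage furrow, was at 48.6 CPM in the Lztr1 knockout, 28.0 CPM in Rit1-M90I and 25.6 CPM in the control (knockout over control 1.90-fold, 1.32 to 2.72). Hmmr was at 76.7 CPM in the knockout, 62.4 CPM in Rit1-M90I and 45.7 CPM in the control. The same 1.5-fold was reached by Ect2 alone for the Lztr1 knockout over Rit1-M90I, beside 0.422% of all genes higher and 0.608% lower. Ube2c was highest in Rit1-M90I, at 152 CPM in the knockout, 194 CPM in Rit1-M90I and 137 CPM in the control. T cells are given as background, with a median difference of −0.48 for the Lztr1 knockout over the control from 55 cells, and 5 of 12 passing members 1.5-fold lower and 0 higher beside 9.92% and 7.36% of all genes. For Rit1-M90I over the control 0 of the 12 were higher or lower, beside 1.04% and 1.90%, and for the Lztr1 knockout over Rit1-M90I 0 were higher and 3 lower, beside 9.84% and 9.43%.

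**Figure D5:**
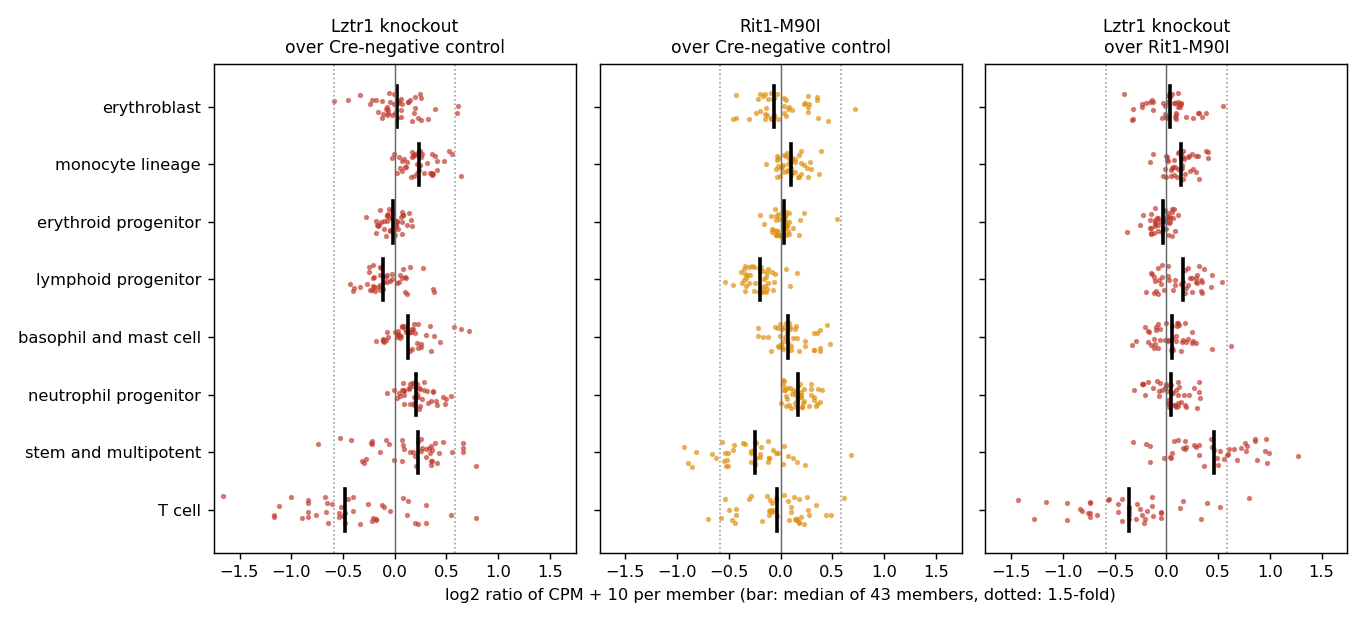
Log2 ratios of each of the 43 genes in each population, in 1 panel per comparison, with a bar at the median and dotted lines at 1.5-fold. In neutrophil progenitors 41 and 43 of the 43 points lie above 0 in the panels of the knockout and Rit1-M90I over the control, in lymphoid progenitors mostly below 0, and in stem and T cells they scatter widely.

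The other genes of cell division gave similar values over all cells. Among kinetochore and centromere genes outside the list, 17 of 22 passed the minimum level, with a median of 0.20 for the Lztr1 knockout over the control and 0.09 for Rit1-M90I over the control. Sgo1, the protector of centromeric cohesion, was at 53.6 CPM in the Lztr1 knockout, 47.5 CPM in Rit1-M90I and 38.1 CPM in the control, and Bub3, a checkpoint protein, was equal in the knockout and the control at 115 CPM in the knockout, 107 CPM in Rit1-M90I and 115 CPM in the control. In the same comparisons, other mitotic kinesins and midzone genes had medians of 0.23 and 0.03 (6 of 12 passing), condensin and cohesin genes 0.16 and −0.02 (13 of 14), and regulators of mitotic entry 0.16 and −0.07 (8 of 12). Ncapg2, a condensin II subunit, was at 69.8 CPM in the knockout, 48.7 CPM in Rit1-M90I and 47.0 CPM in the control, and Pttg1, the separase inhibitor securin, at 28.0 CPM in the knockout, 28.4 CPM in Rit1-M90I and 27.8 CPM in the control. Kif4, a chromosome-bound kinesin, was at 32.0 CPM in the knockout, 26.9 CPM in Rit1-M90I and 23.9 CPM in the control and Kif22, another, at 40.7 CPM in the knockout, 34.5 CPM in Rit1-M90I and 37.3 CPM in the control. Chek1, the kinase of the DNA damage checkpoint, was at 29.4 CPM in the knockout, 22.8 CPM in Rit1-M90I and 24.4 CPM in the control, and Ensa, an inhibitor of the phosphatase that opposes CDK1, at 43.4 CPM in the knockout, 41.2 CPM in Rit1-M90I and 44.1 CPM in the control.

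The subunits of the anaphase-promoting complex, which are made throughout the cycle, had medians of only 0.05 and −0.02 with 16 of 16 passing. Cdc27 was at 30.9 CPM in the knockout, 25.5 CPM in Rit1-M90I and 25.9 CPM in the control and Cdc26 at 102 CPM in the knockout, 107 CPM in Rit1-M90I and 111 CPM in the control. The transcription factors and DREAM genes that control the wave had 0.11 and −0.05 (12 of 15 passing). Mybl2, an activator, was at 32.4 CPM in the Lztr1 knockout, 24.1 CPM in Rit1-M90I and 25.4 CPM in the control, and Rbl2, the p130 pocket protein of resting cells, at 28.9 CPM in the knockout, 30.5 CPM in Rit1-M90I and 31.6 CPM in the control. For S phase genes the medians were 0.19 and −0.03 (37 of 37 passing), with Tk1, the thymidine kinase, at 86.7 CPM in the knockout, 78.1 CPM in Rit1-M90I and 67.6 CPM in the control and Rfc2, a clamp loader subunit, at 155 CPM in the knockout, 157 CPM in Rit1-M90I and 168 CPM in the control. In the monocyte lineage the S phase medians were −0.02 for the Lztr1 knockout over the control and −0.15 for Rit1-M90I over the control, where the mitotic medians were 0.23 and 0.10. In lymphoid progenitors the S phase medians were 0.16 for the Lztr1 knockout over the control and −0.26 for Rit1-M90I over the control, where the mitotic medians were −0.11 and −0.20. In stem and multipotent cells they were 0.54 and −0.06, where the mitotic medians were 0.23 and −0.25. There 14 of the 33 passing S phase genes were 1.5-fold higher in the knockout than in the control, beside 4.47% of all genes. Genes of quiescence and arrest had medians of −0.22 and −0.07 (6 of 12 passing). Among them Txnip, an inhibitor of glucose uptake, was 1.5-fold lower in the knockout than in the control, at 109 CPM in the knockout, 146 CPM in Rit1-M90I and 169.9 CPM in the control. In the remaining lists 0 genes were 1.5-fold apart over all cells, a share to be read against 0.221% and 0.322% of all genes for the Lztr1 knockout over the control.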

How the data were processed

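RNA was measured in 3 single-cell libraries made on a 10x Genomics platform, 1 per genotype. The authors deposited UMI counts per gene and cell barcode, made with Cell Ranger 6.1.1 on build mm10 per the file headers and the submitters' processing notes, which also name Seurat 4.1.0. The annotation release and the settings for calling cells are not stated there. The deposited counts totalled 30398349 UMIs in the Lztr1 knockout, 88560148 in Rit1-M90I and 67541728 in the control.

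From these counts, barcodes with at least 1000 UMIs, 500 genes and at most 10% mitochondrial UMIs were kept, which removed 19.64% of barcodes in the Lztr1 knockout, 15.17% in Rit1-M90I and 11.24% in the control, and doublets called by scrublet in scanpy 1.11.5 were removed. Each cell was scored for 17 populations as the mean over marker genes of ln(1 + UMIs per 10000), scaled to the 99th percentile, and was assigned where the best score reached 0.25 and led the next by 0.05; other cells stayed ungated. The gate settings were chosen after the counts had been seen. UMIs were summed per population and library and divided by the total to give CPM, counts per 1000000 UMIs, with exact Poisson intervals and exact conditional intervals for ratios at 95%. Differences are log2 of (CPM + 10) over (CPM + 10), and genes count as 1.5-fold apart on that scale when their mean over the libraries was at least 20 CPM. Python 3.11.15, numpy 2.4.6, scipy 1.17.1, pandas 2.3.3 and matplotlib 3.10.9 were used. No test of genotype was possible with 1 library each.

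The 43 members, the markers and the other lists were chosen with earlier results of these data known. All members may be named. Values were given for the most abundant member of each role and those with the highest and lowest ratios, and for the highest and lowest passing gene of each other list. In populations they were to be given for the 2 highest and 2 lowest passing members, but not all of these are named. Alternatives varied the cell filter, doublets, total, pseudocount, gate margin, clusters in place of gates, population weights, thinning and the list-positive threshold.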

Additional observations from a re-analysis of the deposited data

Results flagged for a closer look

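The direction of the list median differed between populations under the same comparison, and the difference between populations was not tested. For the Lztr1 knockout over the control, the median log2 difference was 0.21 in neutrophil progenitors, 0.23 in the monocyte lineage and 0.12 in basophils and mast cells, against −0.11 in lymphoid progenitors. For Rit1-M90I over the control it was 0.17 in neutrophil progenitors, 0.10 in the monocyte lineage, 0.035 in erythroid progenitors and 0.075 in basophils and mast cells, against −0.20 in lymphoid progenitors. Both comparisons share the control library, so their likeness is no independent sign.

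Called doublets, which the comparisons leave out, had a list median of 80.6 CPM in the 84 doublets of the Lztr1 knockout and 61.2 CPM in the 466 of Rit1-M90I, against 53.3 CPM in the 261 of the control. In the kept cells the medians were 72.8 CPM in the Lztr1 knockout, 62.0 CPM in Rit1-M90I and 61.1 CPM in the control.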

How the results depend on the processing

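Of 294 values of the list's median log2 difference under alternatives, 228 stayed within the counting error of the reported value. A further 62 moved beyond it. Sign changes were counted only where the reported median was larger than its own counting error, so smaller medians may also have changed sign. The causes were not tested. The remaining 4 were counted as changed in sign. The 4 were the stem and multipotent cells of the Lztr1 knockout over the control over every deposited barcode (−0.0043), basophils and mast cells of the same comparison among cells of at least 3000 UMIs (−0.028), neutrophil progenitors of the Lztr1 knockout over Rit1-M90I with size factors by the median of ratios (−0.020), and erythroid progenitors of Rit1-M90I over the control with clusters in place of gates (−0.0049). For the Lztr1 knockout over the control, all kept cells gave 0.16 with the stricter filter, 0.15 among cells of at least 3000 UMIs, 0.16 with size factors, 0.22 with a pseudocount of 1 CPM and 0.11 with control weights; neutrophil progenitors gave 0.16 with size factors, 0.24 with a pseudocount of 1 CPM and 0.31 with clusters; monocyte lineage cells gave 0.18 with the stricter filter and basophils and mast cells 0.011; lymphoid progenitors gave −0.19 over every barcode and −0.18 with the wider gate margin, and erythroid progenitors −0.083 with clusters. For Rit1-M90I over the control, all kept cells gave 0.0092 among cells of at least 3000 UMIs, 0.048 without the 50 most abundant genes in the total, 0.068 with size factors and 0.056 with control weights. Neutrophil progenitors gave 0.15 among cells of at least 3000 UMIs, 0.20 without the 50 genes, 0.22 with a pseudocount of 1 CPM and 0.22 with clusters. Monocyte lineage cells gave 0.056 over every barcode, 0.063 with the wider margin, 0.064 with clusters, 0.14 without the 50 genes and 0.15 with size factors, and erythroid progenitors 0.056 without the 50 genes. Lymphoid progenitors gave −0.26 over every barcode and with the wider margin, −0.13 with the stricter filter and −0.24 with a pseudocount of 1 CPM. For the Lztr1 knockout over Rit1-M90I, all kept cells gave 0.12 with the stricter filter, 0.078 with size factors, 0.17 with a pseudocount of 1 CPM and 0.046 with control weights. The limit of 3000 UMIs was chosen after seeing the data. The count of members 1.5-fold apart over all cells was 0 under every alternative run.

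The share of list-positive neutrophil progenitors was 52.8% in the Lztr1 knockout, 59.0% in Rit1-M90I and 41.7% in the control when thinned to 1500 UMIs, and 90.2% in the Lztr1 knockout, 92.9% in Rit1-M90I and 82.2% in the control at 5000 UMIs. No paired analysis was possible because each genotype has 1 library. The stem and multipotent and T cell gates hold 55 to 57 knockout cells, so single genes there rest on few UMIs.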

Other observations

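Populations with too few cells for the comparisons still showed mitotic RNA. Over the 3 libraries together, list-positive cells at 3000 UMIs were 57.5% of 200 plasmacytoid dendritic cells, 49.6% of 248 megakaryocyte lineage cells, 45.0% of 109 B lineage cells and 32.0% of 100 NK cells, against 6.55% of 336 plasma cells. Cells under 3000 UMIs were left out, namely 183 B lineage, 207 NK and 11 plasma cells. Without thinning or this limit the shares were 28.1% for B lineage, 17.9% for NK and 25.4% for plasma cells. Median depths there were 2573 UMIs for B lineage, 2583 for NK and 10979 for plasma cells, so these shares also reflect depth. At 3000 UMIs the ungated cells were 54.7% list-positive in the Lztr1 knockout, 58.5% in Rit1-M90I and 53.0% in the control. Barcodes that failed the cell filter had list medians of 50.3 CPM in the Lztr1 knockout, 47.6 CPM in Rit1-M90I and 47.2 CPM in the control.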
